A study of Homo sapiens with 6 samples.

Results

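The Wnt ligands, their receptors and co-receptors, the secreted proteins that hold them in check and the classical targets of the pathway were examined in CCD18Co cells, a human colon fibroblast line, after silencing of *LTBP2*. The members were the protein-coding genes whose symbols fall in the WNT, FZD, SFRP, DKK, RSPO or LGR families, together with *FRZB*, *WIF1*, *LRP5*, *LRP6*, *ROR1*, *ROR2*, *RYK*, *AXIN1*, *AXIN2*, *RNF43*, *ZNRF3*, *NKD1*, *NKD2*, *NOTUM*, *CTNNB1*, *TCF7*, *TCF7L1*, *TCF7L2* and *LEF1*. The rule used names and no measured value, and it gave 63 of the 60663 genes in the count table. The group called siLTBP2 (n = 3 libraries) was transfected for 6 h with siRNAs against *LTBP2*, a secreted glycoprotein of the extracellular matrix, and the group called siNT (n = 3 libraries) with a non-targeting siRNA pool. RNA of both groups was taken 48 h after transfection, and both were of the same line, grown with serum. Libraries were made from total RNA after removal of ribosomal RNA, and reads were counted per gene. The labels give replicate numbers but not whether replicates were separate cultures, so p-values measure only the spread between these libraries, which may be technical. The silencing was transient and CCD18Co is a single line, without the epithelium or the other cells of the colon wall.

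Wnt proteins are lipid-modified growth factors that bind a frizzled receptor on the cell surface. With LRP5 or LRP6 as a co-receptor, this binding stops the destruction complex from marking β-catenin for degradation, and β-catenin then enters the nucleus and acts with the TCF and LEF factors on its targets. Other ligands, WNT5A being the best known, act mostly through ROR1, ROR2 or RYK on cell polarity, the cytoskeleton and calcium, without β-catenin. R-spondins bind LGR receptors and remove the ubiquitin ligases RNF43 and ZNRF3, which otherwise clear frizzled receptors from the surface. In the colon, fibroblasts beside the crypts are a main source of Wnt ligands, R-spondins and secreted antagonists for the epithelial stem cells.

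Each library held between 44663424 and 53576899 reads counted on genes. Levels are given in CPM, counts per 1e6 scaled by the trimmed mean of M-values (TMM), and are compared between genes only as CPM per kb of exon. A gene was called changed when the Benjamini-Hochberg adjusted p of edgeR's quasi-likelihood test, over all 16920 genes tested, was below 0.05, and deregulated when it was below 0.01 with a change of over 2-fold. Adjusted p-values below are all from this test. *LTBP2* itself stood at 25.0, 23.1 and 21.2 CPM in siNT and at 6.49, 8.61 and 6.00 CPM in siLTBP2, a fall to 0.305 of the control level (log2 fold change -1.72, SE 0.15, adjusted p = 6.6e-05). All 10 fibroblast markers examined passed the filter on low counts, 1 of them, *PDGFRB*, fell (by 0.60 on the log2 scale), and their summed level was 9959 to 13220 CPM in siNT and 10100 to 14430 CPM in siLTBP2. Of the 6 epithelial markers, *KRT20* was at 0 and none had over 20 counts in any library. All 5 immune and all 4 enteric glia markers, and 4 of 5 endothelial markers, were also at or under 20 counts, with *S100B* and *SOX10* at 0. Summed smooth muscle markers were higher in siLTBP2 (382 to 422 CPM) than in siNT (219 to 246 CPM), carried by *SMTN* and *ACTG2*, while *DES* and *MYH11*, which define mature smooth muscle, stayed at or under 20 counts. The part of this difference in the results below was not tested.

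Of the 63 members, 35 had enough counts to be tested. Of the other 28, 14 had no count in any library, and the remaining 14 reached at most 11 counts in a library. Among the 35 tested, 9 rose in siLTBP2 (25.7%, against 9.76% of all genes tested) and 2 fell (5.71%, against 9.51%). Of these 11 members, 3 were deregulated, *FZD8*, *SFRP1* and *DKK2*, where 2.57% of all genes tested were. The groups did not overlap for 13 of the 35 members, close to the 37.0% of all genes tested. The median log2 fold change over the tested members was 0.03, beside -0.01 over all genes tested, and it ranged from -2.00 to 2.22. All members are protein-coding, and of 12496 protein-coding genes tested, 1495 rose and 1434 fell. These are levels in bulk RNA, where fewer cells of a type and less RNA per cell cannot be told apart.

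**Figure D1:**
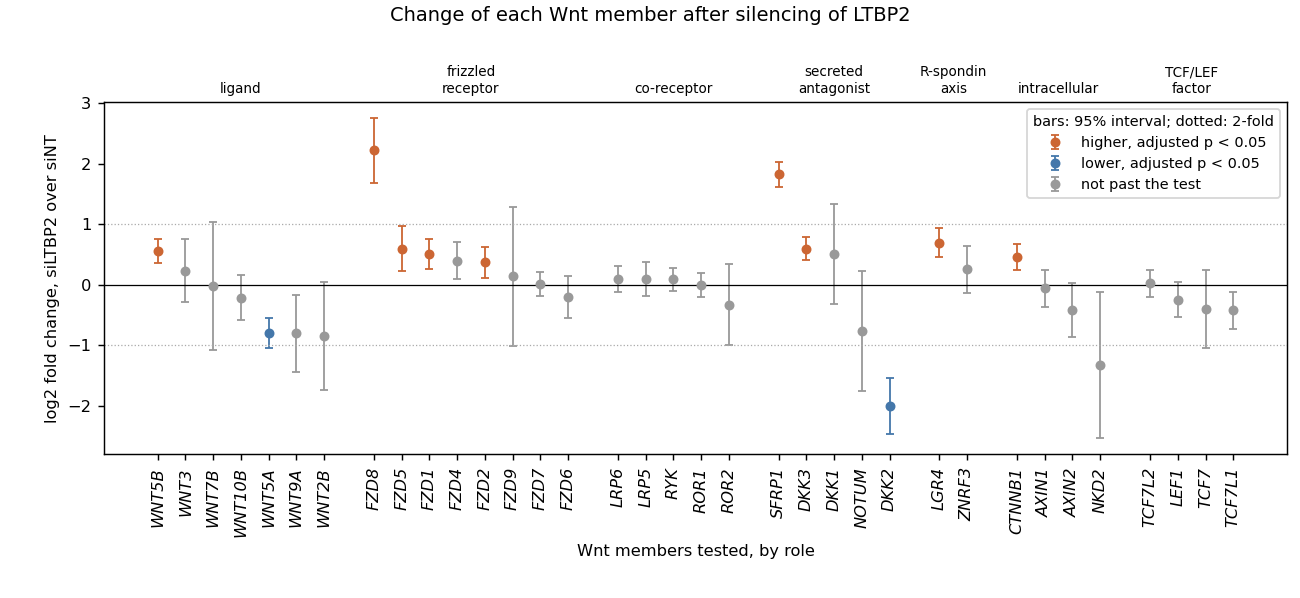
Log2 fold change of siLTBP2 over siNT for the 35 Wnt members tested, by role, each with its 95% interval (3 libraries a group). *FZD8* and *SFRP1* stand above the 2-fold line and *DKK2* below the lower one, where *NKD2*, which did not pass the test, also lies. Of the 5 co-receptors 4 lie near 0, and *FZD9*, *WNT7B* and *NKD2* have wide intervals at low counts.

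Among the ligands, 2 closely related genes made up most of the level per length, and these moved in opposite directions. WNT5A and WNT5B are the ligands most tied to the β-catenin-independent branch, in cell movement and tissue polarity. *WNT5A* (ENSG00000114251) was at 372, 303 and 336 CPM in siNT and at 186, 177 and 220 CPM in siLTBP2. Every siLTBP2 library lay below every siNT library, and *WNT5A* fell by 0.79 on the log2 scale (SE 0.11, 95% interval -1.04 to -0.55, adjusted p = 8.61e-04), to 0.577 of the control level. *WNT5B* (ENSG00000111186) was at 157, 138 and 139 CPM in siNT and at 214, 203 and 224 CPM in siLTBP2. It rose 1.47-fold (log2 fold change 0.56, SE 0.09, 95% interval 0.36 to 0.75, adjusted p = 0.00175), again without overlap between the groups.

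Per kb of exon, *WNT5A* exceeded *WNT5B* in each siNT library, by ratios of 1.40, 1.30 and 1.43, and was below it in each siLTBP2 library, at 0.517, 0.518 and 0.583. The order of the leading ligands was thus exchanged. *WNT5A* made up 55.9% ± 1.18 (SD, n = 3) of the summed ligand level per length in siNT and 34.0% ± 1.68 (SD, n = 3) in siLTBP2. Together the pair accounted for 96.4% to 97.6% of that sum in the 6 libraries. The sum over all tested ligands was 84.1 ± 7.25 CPM per kb in siNT and 79.8 ± 5.38 CPM per kb in siLTBP2 (SD, n = 3), with overlapping values. An exact two-sided permutation test of 3 against 3 libraries cannot give a p below 0.1, so these ratios and sums are given without one.

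**Figure D2:**
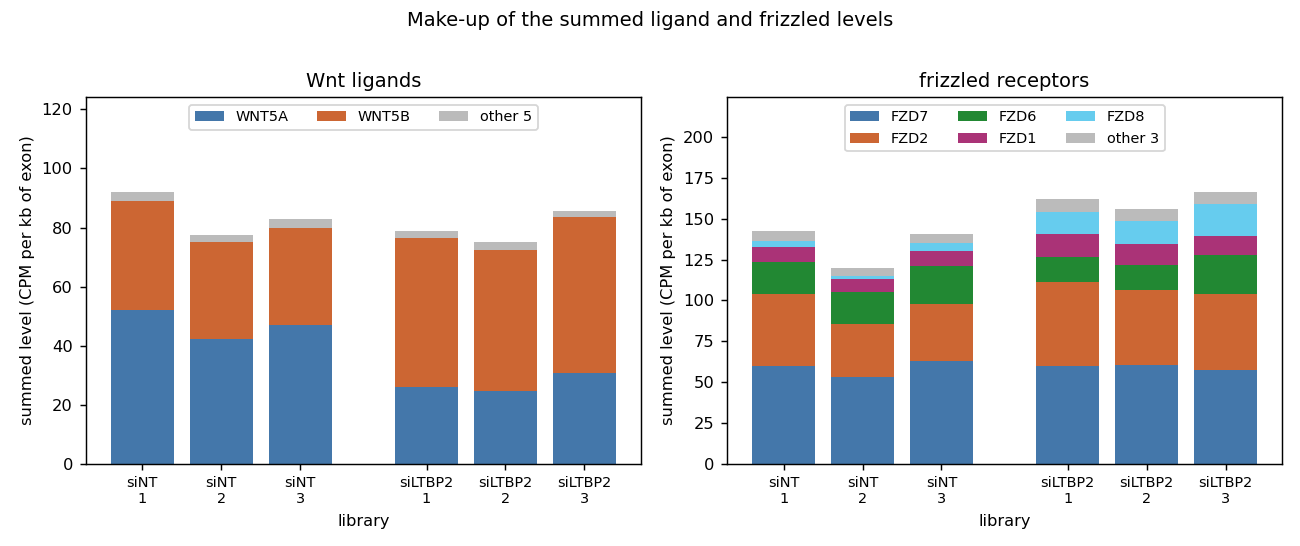
Summed level of the tested Wnt ligands (left) and frizzled receptors (right) in each library, in CPM per kb of exon, divided by gene. WNT5B takes the larger part of the ligand sum in the 3 siLTBP2 libraries and WNT5A in the 3 siNT libraries, and FZD8 widens from 2.46% to 9.69% of the frizzled sum.

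*WNT5A* lies on the minus strand of chromosome 3 (GRCh38, 55465715 to 55490539) and has 5 exons in its canonical transcript, and *WNT5B* on the plus strand of chromosome 12 (1529891 to 1647212), also with 5 exons. RefSeq (GRCh38.p14) starts *WNT5A* transcripts at 2 promoters, which the gene counts do not separate. Both are shown, from 250 bases before the start to 50 after it, since no start can be assigned to the fall. Neither holds any of the motifs searched, which are described with the promoters of the other members.
WNT5A, chr3:55487257-55487556, minus strand: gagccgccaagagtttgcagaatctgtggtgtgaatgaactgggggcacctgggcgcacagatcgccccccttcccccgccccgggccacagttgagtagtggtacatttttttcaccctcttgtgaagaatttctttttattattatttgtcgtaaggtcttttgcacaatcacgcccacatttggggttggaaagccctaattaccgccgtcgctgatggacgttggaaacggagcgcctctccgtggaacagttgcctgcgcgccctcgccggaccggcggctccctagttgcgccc
WNT5A, chr3:55481349-55481648, minus strand: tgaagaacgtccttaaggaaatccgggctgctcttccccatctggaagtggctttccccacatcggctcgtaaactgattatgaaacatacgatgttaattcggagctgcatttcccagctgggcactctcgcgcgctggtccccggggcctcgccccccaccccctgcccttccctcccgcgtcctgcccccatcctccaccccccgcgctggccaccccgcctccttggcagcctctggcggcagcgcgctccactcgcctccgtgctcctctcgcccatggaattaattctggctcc

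The other 5 tested ligands were present at 1.36 CPM per kb or less on average. *WNT9A* had 2.01, 1.76 and 1.47 CPM in siNT and 1.15, 1.29 and 0.588 CPM in siLTBP2. The groups did not overlap, yet its log2 fold change of -0.80 (SE 0.29) gave an adjusted p of 0.0790. *WNT2B*, *WNT10B*, *WNT7B* and *WNT3* overlapped between the groups, with log2 fold changes of -0.84, -0.21, -0.02 and 0.24 in that order, and none passed the test. The remaining 12 of 19 WNT genes were not tested. *WNT1*, *WNT3A*, *WNT8A*, *WNT8B* and *WNT9B* had no count, and *WNT2*, *WNT4*, *WNT6*, *WNT7A*, *WNT10A*, *WNT11* and *WNT16* had between 1 and 12 counts summed over the 6 libraries.

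**Figure D3:**
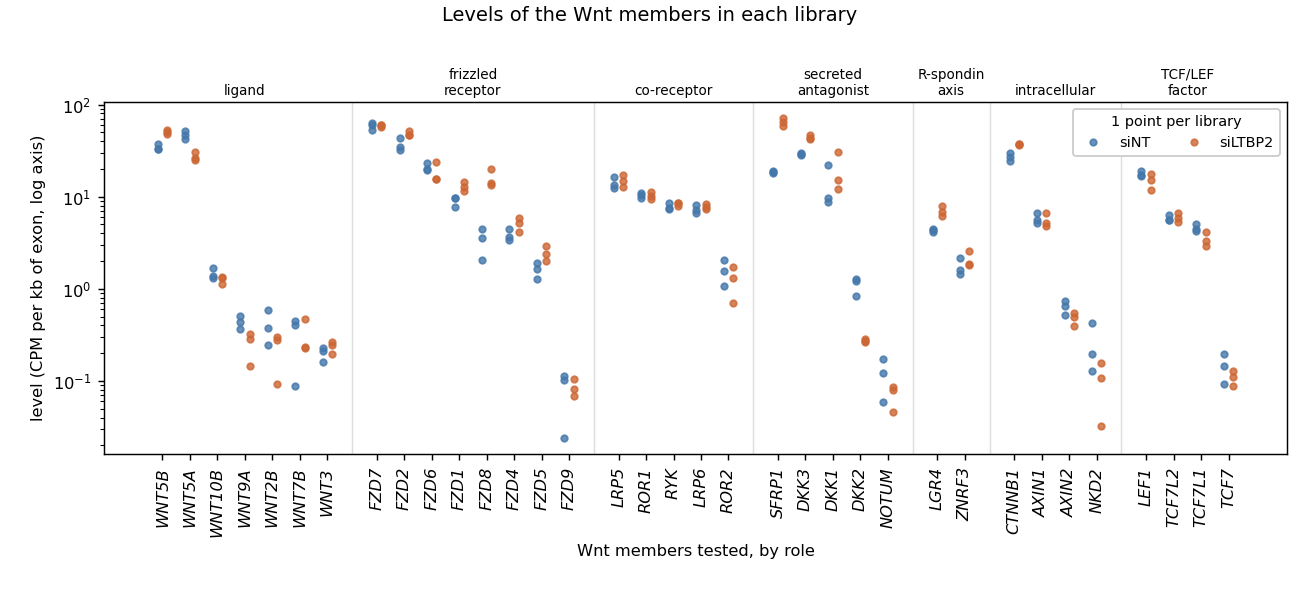
Level of each tested Wnt member in each library, in CPM per kb of exon on a log axis, by role, with siNT in blue and siLTBP2 in orange. *FZD7* averages 58.7 CPM per kb in siNT and 59.3 in siLTBP2, *SFRP1* averages 18.5 and 65.4 CPM per kb, *SFRP1* and *FZD8* lie higher in all 3 siLTBP2 libraries than in any siNT library, and *DKK2* lower.

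Among the frizzled receptors, 4 of 8 tested rose, where 9.76% of all genes tested did, and none fell, where 9.51% did, with a median log2 fold change of 0.38. The calls for *FZD2* and *FZD5* among them were lost when some single libraries were left out. *FZD8* (ENSG00000177283) changed most of all tested members. It was at 14.4, 8.41 and 18.1 CPM in siNT and at 53.9, 56.9 and 80.0 CPM in siLTBP2. The lowest silenced library was thus well above the highest control library. *FZD8* rose 4.66-fold (log2 fold change 2.22, SE 0.24, 95% interval 1.68 to 2.76, adjusted p = 2.27e-04), and its log2 fold change stayed between 1.97 and 2.48 when any 1 library was left out. It is a gene of 1 exon on chromosome 10 (35638247 to 35642296, minus strand).

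The RefSeq promoter of *FZD8* is shown because this receptor moved furthest. Capitals mark a TATAAA box 29 bases before the start and, 70 bases before it, ATTGG, the reverse complement of the CCAAT box.
FZD8, chr10:35642247-35642546, minus strand: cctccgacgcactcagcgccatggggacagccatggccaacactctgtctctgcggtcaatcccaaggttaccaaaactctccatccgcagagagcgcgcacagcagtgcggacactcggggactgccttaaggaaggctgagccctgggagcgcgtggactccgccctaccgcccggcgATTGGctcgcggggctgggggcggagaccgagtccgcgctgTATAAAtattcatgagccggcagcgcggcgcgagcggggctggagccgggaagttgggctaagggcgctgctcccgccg

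*FZD1* (ENSG00000157240) stood at 66.7, 53.3 and 66.8 CPM in siNT and at 98.6, 88.4 and 79.6 CPM in siLTBP2. The groups were separate, and *FZD1* rose 1.43-fold (log2 fold change 0.51, SE 0.11, adjusted p = 0.0102). *FZD2* (ENSG00000180340) was at 166, 123 and 132 CPM in siNT and at 193, 174 and 176 CPM in siLTBP2. Its rise of 1.30-fold (log2 fold change 0.37, SE 0.11, adjusted p = 0.0437) rested on several libraries. The adjusted p was 0.136 without siNT replicate 2, 0.126 without siNT replicate 3, 0.129 without siLTBP2 replicate 1 and 0.0975 without siLTBP2 replicate 2. *FZD5* (ENSG00000163251), an intestinal receptor for canonical ligands, was at 11.7, 8.95 and 13.3 CPM in siNT and at 16.8, 14.2 and 20.3 CPM in siLTBP2. It rose 1.51-fold (log2 fold change 0.60, SE 0.17, adjusted p = 0.0305). The call for *FZD5* also depended on single libraries, with an adjusted p of 0.0714 without siNT replicate 1, 0.101 without siNT replicate 2, 0.0541 without siLTBP2 replicate 1 and 0.0734 without siLTBP2 replicate 3. *FZD1* (chromosome 7, 91264433 to 91271326, plus strand) and *FZD2* (chromosome 17, 44557484 to 44561262, plus strand) have 1 exon each, and *FZD5* (chromosome 2, 207762598 to 207769906, minus strand) has 2.

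*FZD7*, a receptor of intestinal stem cells, had the highest level per length over the 6 libraries (59.0 CPM per kb), though within siLTBP2 *SFRP1* was above it (65.4 against 59.3 CPM per kb). *FZD7* stood at 275, 245 and 288 CPM in siNT and at 275, 277 and 264 CPM in siLTBP2. The interval of its log2 fold change, -0.18 to 0.21, included 0, and the sign was negative with scaling by library totals. *FZD6*, which mostly signals in planar polarity, was at 79.8, 80.3 and 94.8 CPM in siNT and at 62.5, 63.3 and 96.5 CPM in siLTBP2, where replicate 3 stood apart. Its log2 fold change of -0.20 (SE 0.16) did not pass, while without siLTBP2 replicate 3 it was -0.43 (adjusted p = 0.0136). *FZD4*, a receptor for norrin as well as Wnt ligands, was at 32.7, 25.0 and 27.3 CPM in siNT and at 43.0, 38.0 and 30.7 CPM in siLTBP2. The groups overlapped, and the log2 fold change of 0.39 (SE 0.14) had an adjusted p of 0.0713. This became 0.0460 without siNT replicate 1 and 0.0124 without siLTBP2 replicate 3. *FZD9* was near the filter, *FZD3* had 6 counts in all and *FZD10* none.

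Summed per kb of exon, the tested frizzled receptors stood at 143, 120 and 141 CPM per kb in siNT and at 162, 156 and 166 CPM per kb in siLTBP2. The share of *FZD8* in this sum was 2.46% ± 0.719 in siNT and 9.69% ± 1.94 in siLTBP2, and that of *FZD7* was 43.7% ± 1.48 and 36.7% ± 1.99 (SD, n = 3).

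The co-receptors showed no call. LRP5 and LRP6 serve the β-catenin branch, ROR1 and ROR2 are receptors for WNT5A, and RYK binds several ligands. *LRP6* had the highest log2 fold change of the 5, 0.10 (95% interval -0.12 to 0.31), and *LRP5* followed at 0.09 (-0.19 to 0.37). *RYK* was at 0.09 (-0.10 to 0.28) and *ROR1* at -0.00 (-0.21 to 0.20). These 4 intervals leave no room for a 2-fold change. *ROR2*, at 11.98, 9.14 and 6.34 CPM in siNT and 10.2, 7.63 and 4.10 CPM in siLTBP2, had a wider one, -0.99 to 0.34. Its lower end lay just short of a 2-fold fall.

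Among the secreted antagonists, 2 of 5 tested rose, where 9.76% of all genes tested did, and 1 fell, where 9.51% did. Of these changes, 2 were over 2-fold and counted as deregulated, where 2.57% of all genes tested were. No test of these differences was made. SFRP1 is a soluble relative of the frizzled receptors that binds Wnt ligands outside the cell. *SFRP1* (ENSG00000104332) was at 84.6, 89.8 and 87.9 CPM in siNT and at 308, 341 and 280 CPM in siLTBP2. All 3 silenced libraries exceeded all 3 control libraries by a wide margin, and the controls differed little among themselves. *SFRP1* rose 3.54-fold (log2 fold change 1.82, SE 0.10, 95% interval 1.61 to 2.03, adjusted p = 5.39e-06), and its log2 fold change was 1.74 to 1.89 when any 1 library was left out. Its level per kb was 0.138 ± 0.0174 times the summed frizzled level in siNT and 0.406 ± 0.0530 times that level in siLTBP2 (SD, n = 3). Of its family, *SFRP2*, *SFRP4* and *SFRP5* had no count in any library, and *FRZB*, also a soluble frizzled relative, had 22 counts in all. *WIF1*, which binds Wnt ligands directly, was at 0.

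DKK proteins bind LRP5 and LRP6 and block the co-receptor, apart from DKK3, whose part in Wnt signalling is less settled. *DKK2* (ENSG00000155011) was at 5.47, 5.23 and 3.58 CPM in siNT and at 1.15, 1.16 and 1.23 CPM in siLTBP2, from 253, 258 and 193 counts against 50, 55 and 65. The 3 silenced libraries were nearly equal and all far below the controls. *DKK2* fell by 2.00 on the log2 scale (SE 0.21, 95% interval -2.46 to -1.55, adjusted p = 1.68e-04), to 0.249 of the control level. Leaving out any 1 library gave -2.17 to -1.90. *DKK3* (ENSG00000050165) was at 356, 340 and 346 CPM in siNT and at 504, 558 and 515 CPM in siLTBP2, and rose 1.51-fold (log2 fold change 0.60, SE 0.09, adjusted p = 0.00108) without overlap. *DKK2* lies on chromosome 4 (106921802 to 107283806, minus strand, 4 exons) and *DKK3* on chromosome 11 (11956207 to 12009769, minus strand, 7 exons).

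*DKK1*, the best-known blocker of the co-receptors, was at 21.6, 19.7 and 49.4 CPM in siNT and at 27.1, 33.9 and 67.8 CPM in siLTBP2. Replicate 3 was the highest library in each group, and the groups overlapped. The log2 fold change of 0.51 (SE 0.38) did not pass (adjusted p = 0.394). It was 1.06 without siNT replicate 3 (adjusted p = 0.0414), but as low as 0.013 when another single library was left out. *NOTUM*, a secreted enzyme that removes the lipid from Wnt proteins, had under 1 CPM in every library, and *DKK4* had no count.

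The promoter of *DKK1* is shown because it was the only member promoter with a TCF/LEF match, written here as CTTTGAA or CTTTGAT on either strand. Capitals mark this match 95 bases before the start, the TEAD motif GGAATG at 50 bases and TATAAA at 30 bases before it.
DKK1, chr10:52314031-52314330, plus strand: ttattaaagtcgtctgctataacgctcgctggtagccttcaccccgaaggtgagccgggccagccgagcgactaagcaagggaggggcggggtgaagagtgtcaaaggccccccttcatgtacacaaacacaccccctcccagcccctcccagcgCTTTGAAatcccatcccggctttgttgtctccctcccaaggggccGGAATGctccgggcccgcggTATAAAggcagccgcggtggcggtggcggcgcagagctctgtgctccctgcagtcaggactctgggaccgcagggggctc

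**Figure D4:**
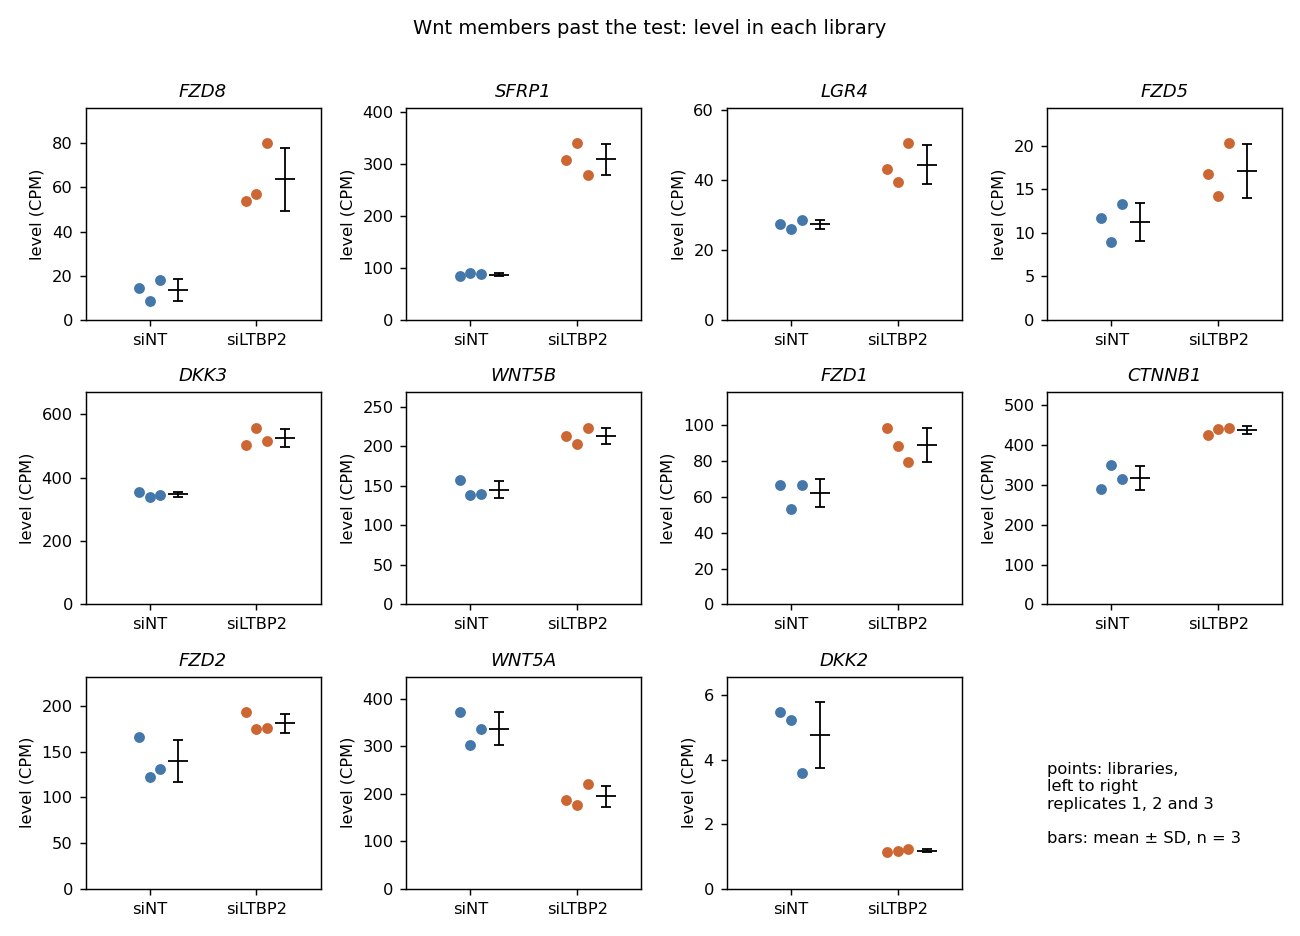
Level in CPM in each library for the 11 Wnt members that passed the test, ordered by log2 fold change, with the mean and SD of 3 libraries beside the points. In each panel the siNT and siLTBP2 points do not overlap, from *FZD8* (13.6 to 63.6 CPM on average) to *DKK2* (4.76 to 1.18 CPM).

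On the R-spondin axis only *LGR4* and *ZNRF3* could be tested. *LGR4* (ENSG00000205213), the broadly expressed R-spondin receptor, was at 27.4, 26.1 and 28.6 CPM in siNT and at 43.3, 39.4 and 50.5 CPM in siLTBP2. It rose 1.62-fold (log2 fold change 0.70, SE 0.11, 95% interval 0.46 to 0.93, adjusted p = 0.00145), with all silenced libraries above the controls. *ZNRF3* was at 11.2, 10.2 and 15.2 CPM in siNT and at 12.6, 13.1 and 18.0 CPM in siLTBP2, with overlap and a log2 fold change of 0.25 (SE 0.18). The stem cell marker *LGR5* had no count, *LGR6* had 3 and *RNF43* had 1. None of the R-spondin genes was tested: *RSPO3* and *RSPO4* were at 0, *RSPO1* had 20 counts and *RSPO2* had 5, summed over the 6 libraries.

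*LGR4* lies on chromosome 11 (27365961 to 27472790, minus strand, 18 exons). Its promoter is shown because, of the promoters listed for members that rose, it alone holds the CCAAT box at 2 places, which are in capitals 132 and 81 bases before the start.
LGR4, chr11:27472741-27473040, minus strand: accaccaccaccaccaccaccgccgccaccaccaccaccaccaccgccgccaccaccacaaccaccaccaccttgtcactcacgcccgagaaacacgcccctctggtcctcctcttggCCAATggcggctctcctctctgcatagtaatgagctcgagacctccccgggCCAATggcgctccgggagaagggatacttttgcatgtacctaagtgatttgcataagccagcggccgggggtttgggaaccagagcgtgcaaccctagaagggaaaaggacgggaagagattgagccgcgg

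Inside the cell, *CTNNB1* (ENSG00000168036), which encodes β-catenin, was at 289, 350 and 314 CPM in siNT and at 425, 441 and 444 CPM in siLTBP2. It rose 1.38-fold (log2 fold change 0.46, SE 0.09, 95% interval 0.25 to 0.67, adjusted p = 0.00726) without overlap. The gene has 15 exons on chromosome 3 (41194741 to 41260096, plus strand). RNA levels do not show how much β-catenin protein there was or where it lay. *AXIN1*, a scaffold of the destruction complex, had a log2 fold change of -0.06 (95% interval -0.36 to 0.25).

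None of the TCF and LEF factors passed. *LEF1*, the most abundant of them per length (16.3 CPM per kb), was at 102, 91.5 and 90.2 CPM in siNT and at 94.1, 82.2 and 63.4 CPM in siLTBP2, with a log2 fold change of -0.24 (SE 0.13, adjusted p = 0.225). *TCF7L1*, mostly a repressor, was at 22.2, 19.99 and 19.0 CPM in siNT and at 18.3, 14.5 and 12.9 CPM in siLTBP2. Its groups did not overlap, and its log2 fold change of -0.42 (SE 0.14) missed the threshold with an adjusted p of 0.0533, which was 0.0153 without siLTBP2 replicate 1. *TCF7L2*, the main factor of the intestine, stood at 0.03 (95% interval -0.20 to 0.25), and *TCF7* at -0.40 with about 1 CPM per library.

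Several members are themselves textbook targets of β-catenin, and many of these act as negative feedback. Chosen for mention after their values were seen, *AXIN2* had a log2 fold change of -0.42 (95% interval -0.86 to 0.03), *NKD2* of -1.33 (-2.54 to -0.12, adjusted p = 0.120) and *NOTUM* of -0.76 (-1.75 to 0.23). With *ZNRF3*, *DKK1*, *LEF1* and *TCF7* described above, none of these targets passed the main test, which had no replicate block. With the replicate number as a block, *ZNRF3* and *DKK1* were called as risen, and *AXIN2*, *NKD2* and *LEF1* as fallen. Whether the numbers mark pairs was not tested. *AXIN2* was at 3.40, 3.87 and 2.67 CPM in siNT and at 2.59, 2.81 and 2.03 CPM in siLTBP2, and *NKD2* was under 1.3 CPM in all libraries.

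For 4 of the 11 members called, a gene tested on the opposite strand overlaps. The library kit keeps strand, but whether the counting used it is not given in the sources used here. *WNT5A-AS1*, opposite *WNT5A*, averaged 0.500 CPM in siNT and 0.246 CPM in siLTBP2 (log2 fold change -1.04, SE 0.37, adjusted p = 0.0763). *FBXL14*, opposite *WNT5B*, had a log2 fold change of -0.31, *USP47*, opposite *DKK3*, of 0.23 and *ULK4*, opposite *CTNNB1*, of -0.20, and none of these 4 partners passed the test. Of the tested partners of other members named here, *PRKG1-AS1*, opposite *DKK1*, did pass. It averaged 0.168 CPM in siNT and 0.435 CPM in siLTBP2 (log2 fold change 1.38, SE 0.41, adjusted p = 0.0370), and is named after its values were seen. *PRSS23*, opposite *FZD4*, averaged 444 CPM in siNT and 467 CPM in siLTBP2, against 28.3 and 37.2 CPM for *FZD4*. *SKP1*, opposite *TCF7*, averaged 132.4 and 132.5 CPM, against 1.455 and 1.105 CPM for *TCF7*. Neither *PRSS23* nor *SKP1* passed, and their part in the counts of these members was not tested.

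In all, 53 RefSeq promoters of 44 of the 63 members were searched on both strands, and the matches describe letters only. *SFRP1*, *DKK2*, *DKK3* and *FZD2* had no entry. The share in all 35116 promoters, and in the 15693 promoters of genes tested, stands beside each. The TCF/LEF motif was in 1 of the 53 (1.89%, against 6.86% of all and 4.35% of tested). TATAAA was in 4 (7.55%, below the 11.5% of all and above the 6.60% of tested), those of *FZD8*, *WNT5B*, *DKK1* and *TCF7*. The CCAAT box was in 20 (37.7%, against 34.6% of all and 34.9% of tested), among them *FZD1*, *FZD5*, *FZD8* and *LGR4* of the members that rose. The AP-1 motif TGANTCA was in 1 (1.89%, against 7.71% of all and 5.38% of tested) and GGAATG in 3 (5.66%, against 14.0% of all and 11.7% of tested).

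Beyond the 63 members, 130 further genes of the pathway were listed, and 111 were tested. Of these 20 rose (18.0%), 22 fell (19.8%) and 69 did not pass, with a median log2 fold change of -0.01. The 5 deregulated genes were *SOX9*, *MET*, *BAMBI*, *BMP4* and *BCL9*. Both shares were above the 9.76% and 9.51% of all genes tested, and no test of this difference was made. The count of genes that rose was 12 without siNT replicate 1 and 13 without siLTBP2 replicate 2.

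**Figure D5:**
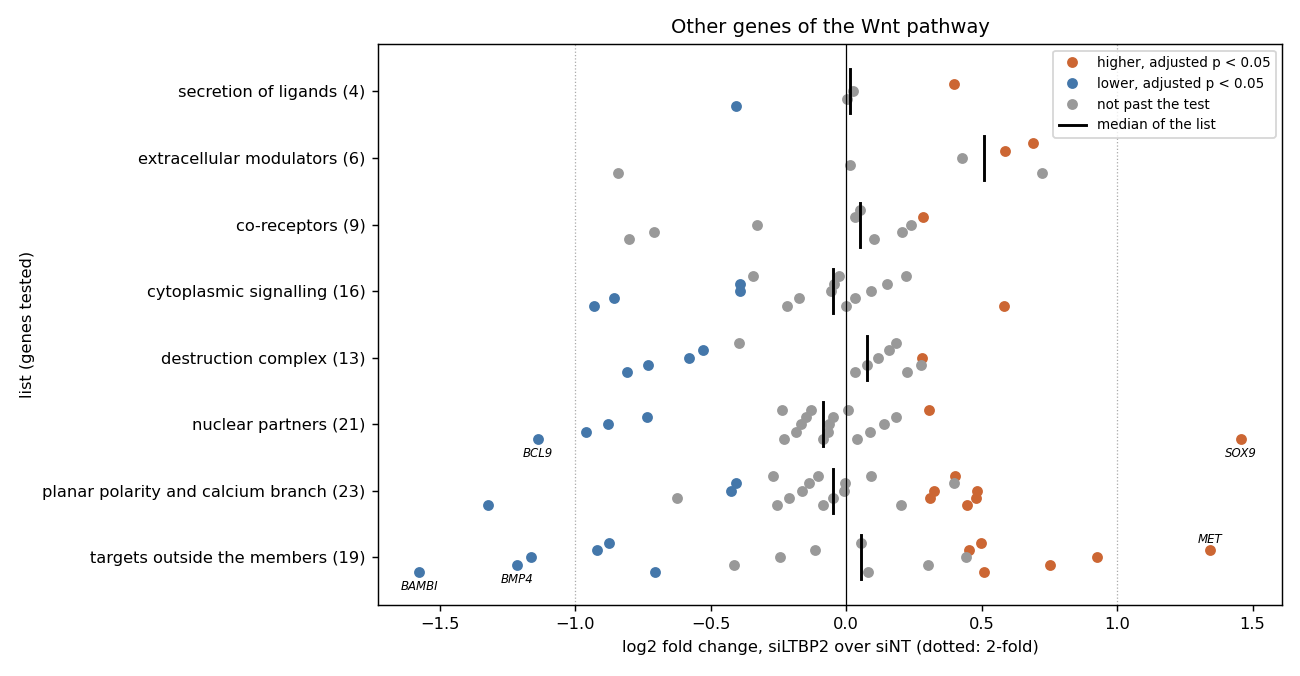
Log2 fold change of siLTBP2 over siNT for the 111 other Wnt pathway genes tested, by list, with those past the test coloured by direction, the median of each list as a bar and the 5 deregulated genes named. The genes past the test in the destruction complex lie mostly below 0 (4 of 5), though the median of all 13 is 0.08 and 8 are positive. The target list is split between 6 that rose and 6 that fell.

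Upstream of the receptors, *WLS*, the carrier that brings Wnt proteins to the cell surface, was at 276, 245 and 260 CPM in siNT and at 204, 203 and 182 CPM in siLTBP2. It fell by 0.41 on the log2 scale (SE 0.09, adjusted p = 0.00956), with no overlap. *TMED5*, a transport factor of the early secretory pathway, rose by 0.40 (SE 0.09, adjusted p = 0.0122, and 0.0546 without siNT replicate 1). *PORCN*, the enzyme that attaches the lipid, did not pass. Among 6 extracellular modulators tested, 2 rose (33.3%, against 9.76% of all genes tested) and none fell (against 9.51%). They were *IGFBP4*, a secreted binding protein that can inhibit Wnt signalling (log2 fold change 0.69, SE 0.16, adjusted p = 0.0119, and 0.0596 without siNT replicate 2), and *TRABD2A*, a Wnt-cleaving protease (0.59, SE 0.12, adjusted p = 0.00660). Among 9 further co-receptors 1 rose (11.1%, against 9.76% of all genes tested) and none fell (against 9.51%). The single call was *KREMEN1*, the receptor that DKK proteins recruit (log2 fold change 0.28, SE 0.08, adjusted p = 0.0344). Its call was lost when 1 of 4 libraries was left out, with adjusted p-values of 0.108 without siNT replicate 1, 0.118 without siNT replicate 3, 0.0985 without siLTBP2 replicate 1 and 0.141 without siLTBP2 replicate 2.

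Of 16 cytoplasmic genes tested, 4 fell (25.0%, against 9.51% of all genes tested) and 1 rose (6.25%, against 9.76%). *CSNK1G1*, a membrane-bound casein kinase that acts on LRP6, was at 65.3, 54.9 and 60.1 CPM in siNT and at 30.3, 33.5 and 30.7 CPM in siLTBP2, and fell by 0.93 on the log2 scale (SE 0.10, adjusted p = 1.55e-04). *DACT1*, a binding partner of dishevelled, fell by 0.86 (SE 0.14, adjusted p = 0.00203) and *DVL3*, a dishevelled, by 0.39 (SE 0.09, adjusted p = 0.0116, and 0.0509 without siLTBP2 replicate 2). *CSNK1G3* fell by 0.39 as well. *CAPRIN2*, which promotes LRP6 phosphorylation, rose by 0.58 (SE 0.11, adjusted p = 0.00563).

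Among 13 destruction complex genes, all of them tested, 4 fell (30.8%, against 9.51% of all genes tested) and 1 rose (7.69%, against 9.76%), *TNKS2*, with a log2 fold change of 0.28. *BTRC* and *FBXW11* encode the paired F-box proteins that mark β-catenin for degradation. *BTRC* was at 86.3, 67.5 and 75.0 CPM in siNT and at 44.97, 42.2 and 43.5 CPM in siLTBP2, and fell by 0.81 on the log2 scale (SE 0.10, adjusted p = 4.47e-04). *FBXW11* was at 102, 90.8 and 105 CPM in siNT and at 57.3, 61.6 and 60.8 CPM in siLTBP2, and fell by 0.73 (SE 0.09, adjusted p = 3.34e-04). For both F-box genes every silenced library lay below every control library. *AMER1*, a scaffold, fell by 0.58 (SE 0.11, adjusted p = 0.00578), and *SIAH1*, a ubiquitin ligase, by 0.53 (SE 0.13, adjusted p = 0.0199). The call for *SIAH1* was lost without siNT replicate 2 (adjusted p = 0.0742), siNT replicate 3 (0.0565) or siLTBP2 replicate 1 (0.0683). *APC*, *GSK3A* and *GSK3B*, the core of the complex, did not pass. Over all 13 genes the median log2 fold change was 0.08, and 8 were positive.

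*BTRC*, *FBXW11*, *CSNK1G1* and *SIAH1*, which fell, share a 7-base word in their 3′ UTRs, shown here as it lies in each. Genes that rose carry it too and are named after the sequences. The word came from an earlier search of these same libraries, so its presence is a description and supports nothing. It is in capitals, with 11 bases on each side.
BTRC, chr10:101554818-101554846, plus strand: actattaatgtGCACCCAgctggtctccc
FBXW11, chr5:171861955-171861983, minus strand: aggggactttgGCACCCAaggagttctga
CSNK1G1, chr15:64170994-64171022, minus strand: tttgatctgcaGCACCCAgaagagaagcc
SIAH1, chr16:48361504-48361532, minus strand: cagaaaataagGCACCCAtctgtctgcca
The word was in the 3′ UTR of 1454 of 12303 coding genes tested (11.8%), of 6 of the 22 pathway genes that fell (27.3%) and of 2 of the 20 that rose (10.0%). Those that rose were *ROCK1*, with 2 copies, and *TMED5*, and those that fell also included *CSNK1G3* and *PPARD*. Of the 35 tested Wnt members 4 carried it (11.4%), *FZD2*, *FZD4*, *ROR2* and *NOTUM*. Of the 9 members that rose 1 carried it (11.1%), *FZD2*, and neither member that fell, *WNT5A* or *DKK2*, did. The median log2 fold change was -0.15 over coding genes with the word and 0.02 over those without it. Its part in the falls was not tested.

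Among 21 nuclear partners tested, 4 fell (19.0%, against 9.51% of all genes tested) and 2 rose (9.52%, against 9.76%). *BCL9*, which links β-catenin to its transcriptional complex, was at 26.8, 21.3 and 20.9 CPM in siNT and at 11.3, 12.5 and 7.57 CPM in siLTBP2, and fell by 1.14 on the log2 scale (SE 0.18, adjusted p = 0.00167). Its paralog *BCL9L* fell by 0.88 (SE 0.14, adjusted p = 0.00157). *NLK*, a kinase that restrains TCF and LEF factors, fell by 0.96 (SE 0.11, adjusted p = 2.27e-04), and the corepressor gene *CTBP1* by 0.74. *SOX9*, a transcription factor that is a Wnt target of the crypt and also opposes β-catenin, was at 29.4, 23.3 and 30.1 CPM in siNT and at 80.9, 77.7 and 69.2 CPM in siLTBP2. It rose 2.75-fold (log2 fold change 1.46, SE 0.11, adjusted p = 4.38e-05). Genes on the activating side (*BCL9*, *BCL9L*) and on the restraining side (*NLK*, *CTBP1*) of the nuclear complex were both among those that fell.

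In the planar polarity and calcium branch, where WNT5A acts, 6 of 23 tested genes rose and 3 fell. These shares were 26.1% and 13.0%, against 9.76% and 9.51% of all genes tested. The median log2 fold change of the 23 was -0.05, and 9 were positive. *RAC1* (log2 fold change 0.48, SE 0.09, adjusted p = 0.00416), *NFATC3* (0.48, SE 0.09, adjusted p = 0.00579) and *ROCK1* (0.45, SE 0.08, adjusted p = 0.00317) carry signals to the cytoskeleton and to calcium-dependent transcription. *VANGL1*, *MAPK9* and *PPP3CA* rose by 0.31 to 0.40. *CELSR3* and *PRKCA* fell by 0.41 and 0.42. *CELSR1*, an atypical cadherin under 1 CPM, fell by 1.32 (SE 0.41, adjusted p = 0.0440). Its call was kept without siNT replicate 2, and leaving out each of the other 5 libraries in turn gave adjusted p-values of 0.0714 to 0.146.

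Of 19 targets outside the members, 6 rose (31.6%, against 9.76% of all genes tested) and 6 fell (31.6%, against 9.51%). *MET*, the hepatocyte growth factor receptor, was at 117, 94.1 and 134 CPM in siNT and at 266, 274 and 336 CPM in siLTBP2, and rose 2.54-fold (log2 fold change 1.34, SE 0.14, adjusted p = 1.56e-04). *ENC1*, *FOSL1*, *JUN*, *CCN4* and the cyclin gene *CCND1* also rose, by 0.45 to 0.92 on the log2 scale. *BAMBI*, a decoy receptor of the TGF-β family, was at 117, 109 and 78.8 CPM in siNT and at 39.2, 39.7 and 23.2 CPM in siLTBP2, and fell by 1.58 (SE 0.20, adjusted p = 5.41e-04). *BMP4* fell by 1.21 (SE 0.22, adjusted p = 0.00329). *PPARD*, *LBH* and *CD44* fell by 0.92, 0.88 and 0.71. Many of these targets answer to other pathways as well, and the targets most specific to β-catenin are among the members described above.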

How the data were processed

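RNA was sequenced from 6 libraries of CCD18Co fibroblasts, 3 per group, 48 h after transfection. The authors aligned the reads to GRCh38 and deposited raw counts per gene, and the submitters' processing notes name STAR 2.7.1a and HTSeq 0.11.2. Whether counting used strand, and which annotation release, is not given in the sources used here. In all, 60663 genes were listed, 27067 of them at 0 in every library, and 60462 identifiers were found in GENCODE 44, which gave positions and exon lengths. Library totals were 44663424 to 53576899 counts, which limits the precision for members of few counts.

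The Wnt members, the other pathway lists and the marker lists were chosen with earlier results of these data known. Genes past filterByExpr were tested with the two-sided quasi-likelihood test of edgeR 4.0.16 (glmQLFit, glmQLFTest) under R 4.3.3, with TMM factors, without a replicate block and with Benjamini-Hochberg adjustment over all 16920 genes tested. The study's likelihood ratio test was an alternative. A standard error is the size of the log2 fold change over the root of its F statistic. Named in the text were the members with an adjusted p below 0.05, *SFRP1*, the 10 members of highest level per length, the 3 members nearest the threshold, the deregulated genes and up to 4 largest changes of each other list, tested antisense partners and *LTBP2*. Others are given by counts and ranges, or were added after their values were seen. The values of some genes that these rules or lists name are not reported here. In a test on simulated data of 16620 genes, 81.4% of 97 genes changed by a log2 fold change of 1 and 97.9% of 97 changed by 2 were called, and 7.9% of all calls were false.

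Promoters, from 250 bases before to 50 after each start, came from RefSeq (GRCh38.p14), and 3′ UTRs from GENCODE 44 on GRCh38. Alternatives were DESeq2 1.42.0, RLE, upper-quartile and library-total scaling, no filter on low counts, a filter of 1 CPM in 3 libraries, an adjusted p threshold of 0.01, the replicate number as a block and leaving out each library.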

Additional observations from a re-analysis of the deposited data

How the results depend on the processing

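*FZD8*, *SFRP1*, *DKK2*, *WNT5A*, *WNT5B*, *DKK3*, *LGR4*, *CTNNB1* and *FZD1* kept their direction and their call (adjusted p below 0.05) under every alternative fit that was run. The count of members that fell, 2 in the report, was 4 with the likelihood ratio test, 4 with DESeq2 and 6 without a filter on low counts. At an adjusted p below 0.01, 10 other pathway genes rose and 14 fell, in place of 20 and 22, and 6 members rose. Leaving out each library in turn gave 7 to 9 members that rose, 2 to 3 that fell, 3 to 3 that were deregulated, 12 to 19 other pathway genes that rose and 18 to 20 that fell. The small log2 fold change of *FZD7* (0.01) changed sign with library totals (-0.022), without siNT replicate 2 and without siLTBP2 replicate 2, and was -0.0502 to 0.0679 when any 1 library was left out. For all of these, the cause was not tested. For the genes in the text that the naming rules picked, the values where leaving out 1 library changed the call stand in the report. Other genes mentioned, such as *CCND1*, *CCN4*, *TNKS2*, *VANGL1*, *MAPK9* and *PPP3CA*, were not followed singly. Their calls may depend on a single library. *KREMEN1* was not called with library totals (adjusted p = 0.0747) or without a filter (0.0881). The median of all genes stayed between -0.04 and 0.01 over the scalings.

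With the replicate number as a block, 12 members rose, 10 fell and 4 were deregulated, and 30 other pathway genes rose and 32 fell. The replicate block added *DKK1*, *FZD4* and *ZNRF3* to the members that rose, and *WNT2B*, *WNT9A*, *LEF1*, *TCF7L1*, *NKD2*, *FZD6*, *AXIN2* and *ROR2* to those that fell. Deviations from the group means correlated between same-numbered libraries by 0.30, 0.08 and 0.43, and between differently numbered ones by -0.39 to 0.10. Whether the numbers mark pairs was not tested, and the main test did not treat them as pairs. All 3 siLTBP2 libraries correlated best with the siNT library of their own number, while siNT replicate 2 correlated best with siLTBP2 replicate 1 (0.10). Depth limits members of few counts, and for the 28 members not tested no difference was detectable at this depth.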
